A study of Homo sapiens with 6 samples.

Results

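The 200 positions from 3591 to 3790 of human 28S ribosomal RNA, which cover the first part of domain IV and helix 69, were taken from tables of 6939 rRNA positions by position number, with a read minimum that all of them met. They hold 11 of the 94 pseudouridines (Ψ) listed for 18S and 28S rRNA, at 3637, 3639, 3695, 3715, 3730, 3734, 3758, 3762, 3764, 3768 and 3770, and 1 methylcytidine, at 3782. The RNA came from HEK293T/17, a transformed human embryonic kidney cell line, as total RNA from which short RNAs had been removed. Fragments were treated with CMC, a carbodiimide, or mock-treated, and each was copied in 3 ways: by the HIV reverse transcriptase (HIV RT) in magnesium, or by SuperScript III, an enzyme engineered from that of a murine leukaemia virus, in either manganese or magnesium. The last 2 conditions are called manganese and magnesium for short. There was 1 library for each of these 6 combinations, so no difference had a replicate check, and every call compares a pair of libraries and not the treatments.

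Pseudouridine is an isomer of uridine whose base is joined to the sugar through carbon, and in human rRNA it is placed by the enzyme dyskerin, guided by box H/ACA small nucleolar RNAs. CMC binds uridine, guanosine and pseudouridine, and its adduct on pseudouridine is the most lasting, so that a reverse transcriptase meeting it may stop or may pass and insert a wrong base. Helix 69 is a hairpin of the large subunit that reaches the decoding centre of the small subunit and forms a bridge between them, and its loop carries pseudouridines in most organisms.

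The window is shown because the neighbours of each Ψ are part of every comparison that follows. It is written 5′ to 3′ as the deposited 28S reference gives it, with T for U, and the capitals mark the 11 listed pseudouridines.
28S 3591 to 3790: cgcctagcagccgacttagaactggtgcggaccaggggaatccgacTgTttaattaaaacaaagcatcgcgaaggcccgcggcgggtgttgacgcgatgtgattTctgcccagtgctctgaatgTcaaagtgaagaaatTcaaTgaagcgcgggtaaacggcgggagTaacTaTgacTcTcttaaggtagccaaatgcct
The window holds 55 A, 45 C, 58 G and 42 U, so that U made up 21.0% of it, against 14.9% of all of 28S. Positions count from 1 at the 5′ end of the deposited sequence of 5070 bases. A reverse transcriptase enters from the 3′ end, so it meets position 3790 first and helix 69 before the other sites.

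Of the reads crossing a position, the percent that carried another base is called the mutation share. The stop share is stops as a percent of the sum of stops and crossing reads. All 200 positions had at least 100 crossing reads in both libraries of every pair, the lowest being 7069. A position was called when a two-sided Fisher's exact test passed 0.05 after adjustment over every position tested in 18S and 28S rRNA, provided the shares were 5 or more percentage points apart. No molecular identifiers are described for these amplified libraries, so several reads can stem from 1 molecule, and intervals cover counting error only. At the listed Ψ, the 95% Wilson interval reached at most 0.581 points to either side for a mutation share and 0.877 points for a stop share in the CMC libraries, against 0.0542 and 0.178 points in the mock libraries.

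All 11 pseudouridines had higher mutation and stop shares in the CMC library than in the mock library in each of the 3 conditions. Most other U of the window were also higher. With HIV RT, manganese and magnesium, 29, 29 and 30 of the 31 unlisted U were higher in mutation. For stops, 28, 24 and 29 of them were higher. Over all tested positions, 3912 of 6935, 5385 of 6924 and 5606 of 6912 were higher in mutation, and 3870, 3577 and 3484 in stops. At the 11 sites the size bar was passed far more often by stops. Stop shares were called higher at 9, 8 and 11 of the 11 sites under HIV RT, manganese and magnesium. Among every position tested in the 2 rRNAs, 10.1%, 8.38% and 9.22% were called this way in the same order of conditions. Mutation shares were called higher at 5 of 11 sites under HIV RT, 4 under manganese and 0 under magnesium, beside 1.05%, 1.29% and 0.159% of all tested positions. The 7 sites with a mutation call in at least 1 condition were Ψ3637, Ψ3639, Ψ3715, Ψ3730, Ψ3734, Ψ3758 and Ψ3764, and of these Ψ3637 and Ψ3734 had one with both HIV RT and manganese. Stop calls in every condition were found at 7 sites, Ψ3637, Ψ3639, Ψ3695, Ψ3715, Ψ3758, Ψ3762 and Ψ3770.

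**Figure D1:**
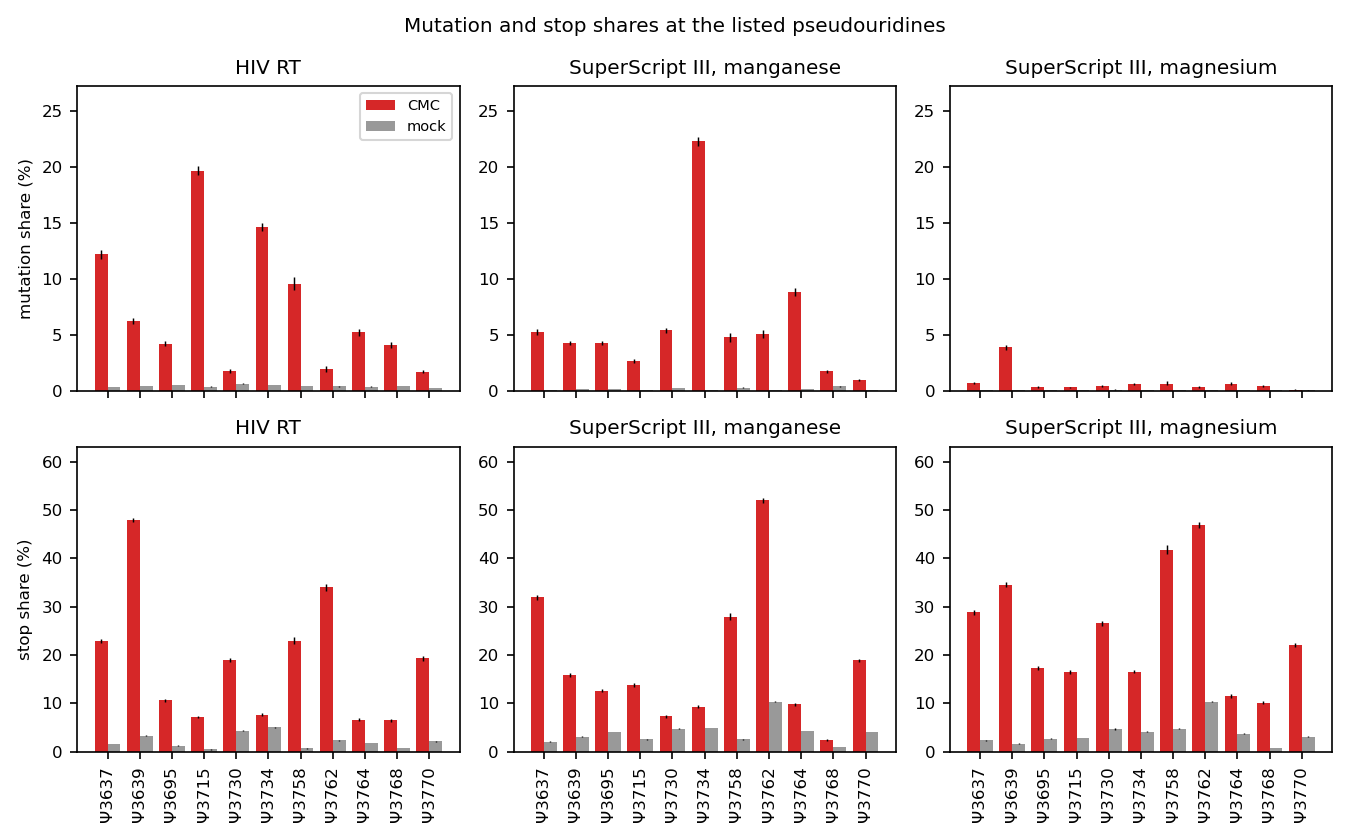
Mutation share (upper row) and stop share (lower row), both in percent, at the 11 listed pseudouridines for the CMC library (red bars) and the mock library (grey bars) of each condition, with 95% Wilson intervals for counting error as black lines. CMC lies above mock at every site, and Ψ3639 is the only site whose mutation share with magnesium exceeded 1% in the CMC library (3.88%).

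The most 5′ pair, Ψ3637 and Ψ3639, lies in a U-rich stretch and had stops in every condition. The bases around them are shown with the Ψ in capitals, as T.
Ψ3637, 3631 to 3643: tccgacTgtttaa
Ψ3639, 3633 to 3645: cgactgTttaatt
At Ψ3637 the stop share in the order HIV RT, manganese and magnesium was 22.9%, 31.9% and 28.8% in CMC, against 1.52%, 2.02% and 2.29% in mock, and this order is kept wherever 3 values are given. At Ψ3639 it was 48.0%, 15.8% and 34.6% in CMC, against 3.25%, 3.08% and 1.59% in mock. Ψ3639 therefore had the highest HIV RT stop share of the 11 sites, while its neighbour was the higher of the pair with manganese. Mutation at Ψ3637 reached 12.2%, 5.26% and 0.695% in CMC, against 0.330%, 0.0432% and 0.0410% in mock. Mutation at Ψ3639 was 6.24%, 4.27% and 3.88% in CMC, against 0.415%, 0.140% and 0.0720% in mock. With magnesium the change at Ψ3639 was 3.81 points, and no other listed Ψ of the window changed by more than 0.654 points there.

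G3638, which separates the pair, was itself called for stops in every condition. Its stop share was 19.5%, 28.9% and 42.8% in CMC, against 1.10%, 1.72% and 2.20% in mock. With magnesium that change, 40.6 points, was larger than at any of the 11 pseudouridines. U3640, directly 3′ of Ψ3639, changed by 15.6, 26.7 and 23.0 points, and U3641 beyond it by 9.81, 8.50 and 17.2 points. Successive positions called for higher stops ran from 3637 to 3641 with HIV RT, from 3636 to 3643 with manganese and from 3637 to 3644 with magnesium, and these rows do not show which base carried an adduct. Multiplying the shares that did not stop over positions 3636 to 3645 gave a read-through of 16.6%, 13.7% and 7.85% in CMC, against 79.0%, 64.1% and 61.1% in mock.

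The 4 pseudouridines of the middle of the window, at 3695, 3715, 3730 and 3734, include those with the largest mutation changes of the 11 under HIV RT (Ψ3715) and under manganese (Ψ3734). Their stops were moderate. Their surroundings are given with the Ψ in capitals.
Ψ3695, 3689 to 3701: gtgattTctgccc
Ψ3715, 3709 to 3721: tgaatgTcaaagt
Ψ3730, 3724 to 3736: agaaatTcaatga
Ψ3734, 3728 to 3740: attcaaTgaagcg
Ψ3734 had a mutation share of 14.6%, 22.3% and 0.587% in CMC, against 0.521%, 0.0937% and 0.0561% in mock. Ψ3715 had 19.6%, 2.65% and 0.301% in CMC, against 0.372%, 0.0650% and 0.0582% in mock. With HIV RT the change at Ψ3715 was the largest of the window, and with manganese it was 16.7 points smaller (95% counting interval 16.2 to 17.1).

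Ψ3730 ran the other way between these conditions. Its mutation share was 1.73%, 5.38% and 0.402% in CMC, against 0.621%, 0.264% and 0.104% in mock, so that the change with HIV RT minus that with manganese was -4.0 points. Its stop share was 18.9%, 7.27% and 26.5% in CMC, against 4.31%, 4.69% and 4.67% in mock, and the change in stops was 12.0 points larger with HIV RT than with manganese. Ψ3695 had nearly equal mutation shares in both, with 4.19% and 4.25% in CMC against 0.508% and 0.143% in mock, and with 0.348% in CMC against 0.0387% in mock for magnesium. Stops at Ψ3695 were 10.7%, 12.6% and 17.2% in CMC, against 1.23%, 4.05% and 2.68% in mock. At Ψ3715 they were 7.15%, 13.7% and 16.4% in CMC, against 0.444%, 2.50% and 2.80% in mock. Ψ3734, the site with the most mutation under manganese, had small stop changes with HIV RT and manganese (2.68 and 4.42 points) and a larger one with magnesium (12.5 points). Its stop share was 7.66%, 9.29% and 16.5% in CMC, against 4.98%, 4.87% and 4.08% in mock, and it was called with magnesium alone.

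**Figure D2:**
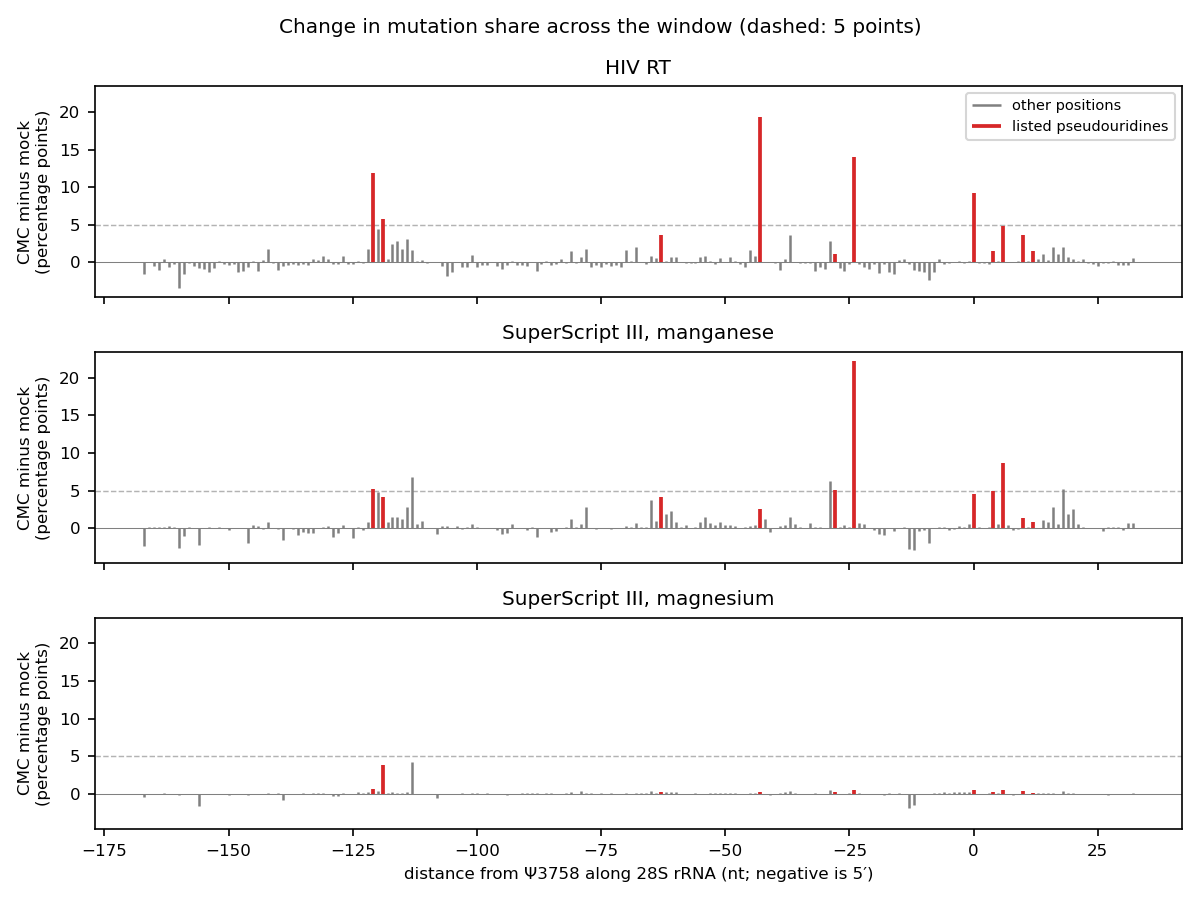
Change in mutation share, CMC minus mock in percentage points, at each of the 200 positions by distance from Ψ3758 in nt, a panel per condition, with listed pseudouridines marked. With HIV RT no unlisted position passes the bar of 5 points, with manganese 3 do (3645, 3729 and 3776), and with magnesium no position does.

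Helix 69 carries 5 of the listed pseudouridines within 13 positions, and far fewer reads passed through it with CMC than without. They are shown with the Ψ of each line in capitals, because neighbouring sites lie within each other's surroundings.
Ψ3758, 3752 to 3764: cgggagTaactat
Ψ3762, 3756 to 3768: agtaacTatgact
Ψ3764, 3758 to 3770: taactaTgactct
Ψ3768, 3762 to 3774: tatgacTctctta
Ψ3770, 3764 to 3776: tgactcTcttaag
Ψ3762 was the strongest stop of the cluster with HIV RT and manganese. There the stop share was 34.0%, 52.0% and 46.9% in CMC, against 2.31%, 10.3% and 10.3% in mock. Ψ3758 had 22.9%, 27.9% and 41.8% in CMC, against 0.636%, 2.53% and 4.76% in mock. With magnesium the changes at these sites were 36.6 points at Ψ3762 and 37.0 at Ψ3758, the highest of the 11 pseudouridines in that condition.

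Ψ3770, which the enzyme meets first, stopped a similar share in each condition. It stood at 19.3%, 18.9% and 22.1% in CMC, against 2.12%, 4.06% and 3.10% in mock. Ψ3764 and Ψ3768 stopped fewer reads. Stops at Ψ3764 were 6.59%, 9.77% and 11.4% in CMC, against 1.81%, 4.26% and 3.69% in mock. Stops at Ψ3768 were 6.44%, 2.34% and 10.2% in CMC, against 0.658%, 0.880% and 0.743% in mock.

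Mutation in helix 69 was called at 1 of 5 sites with HIV RT (Ψ3758), 1 with manganese (Ψ3764) and 0 with magnesium. Ψ3758 had 9.56%, 4.76% and 0.637% in CMC, against 0.401%, 0.267% and 0.0782% in mock. Ψ3764 had 5.22%, 8.81% and 0.639% in CMC, against 0.374%, 0.167% and 0.0458% in mock. Ψ3762, the heaviest stop, had only 1.91%, 5.04% and 0.332% in CMC, against 0.392%, 0.0957% and 0.0387% in mock. At Ψ3768 the mutation share was 4.04%, 1.73% and 0.436% in CMC, against 0.438%, 0.381% and 0.0838% in mock. At Ψ3770 it was 1.70%, 0.923% and 0.105% in CMC, against 0.225%, 0.0689% and 0.0314% in mock, the lowest CMC share of the 11 sites in every condition, although its counting interval with HIV RT overlapped those of Ψ3730 and Ψ3762.

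Over the 13 positions from 3758 to 3770 the product of the shares that did not stop was 18.2%, 18.0% and 15.2% in CMC, against 85.3%, 68.0% and 65.5% in mock. The 5 listed sites took 58.0%, 81.8% and 89.2% of the stops in that span in CMC, against 47.7%, 60.0% and 56.3% in mock. Position 3758 had the lowest crossing count of the window in each CMC library, 9851, 11055 and 7069 reads, against 389222, 180044 and 131713 reads in the mock libraries. At 3637, on its 5′ side, counts were 25532, 25841 and 19578 in CMC, against 221738, 183069 and 114694 in mock. Ψ3758 was thus the site measured on the fewest CMC reads. These counts were not scaled for library depth. Stops summed over both rRNAs were 21206954, 24611914 and 23849776 in CMC, against 47002169, 32327311 and 23209210 in mock.

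**Figure D3:**
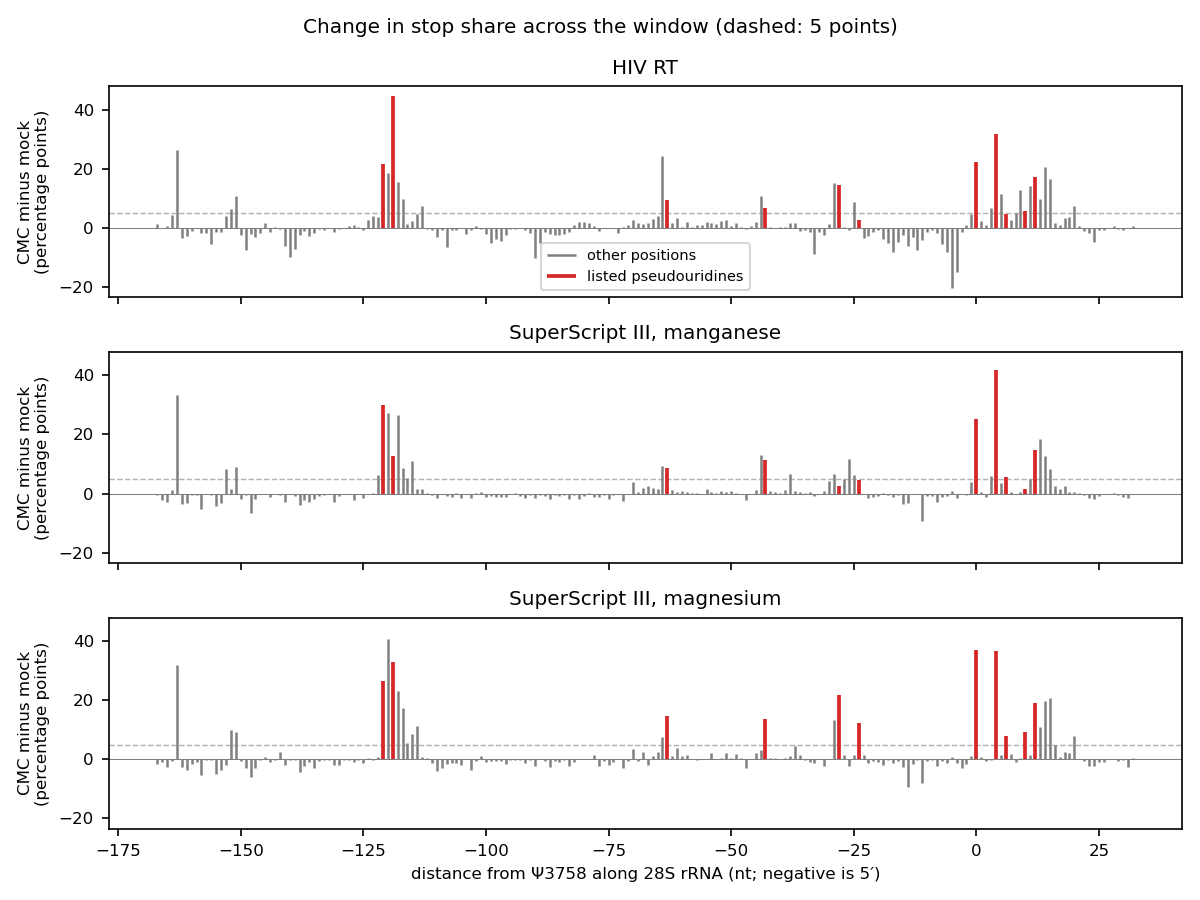
Change in stop share, CMC minus mock in percentage points, at each of the 200 positions by distance from Ψ3758 in nt, a panel per condition, with listed pseudouridines marked. The highest peaks are Ψ3639 with HIV RT (44.7 points), Ψ3762 with manganese (41.7) and the unlisted G3638 with magnesium (40.6).

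**Figure D4:**
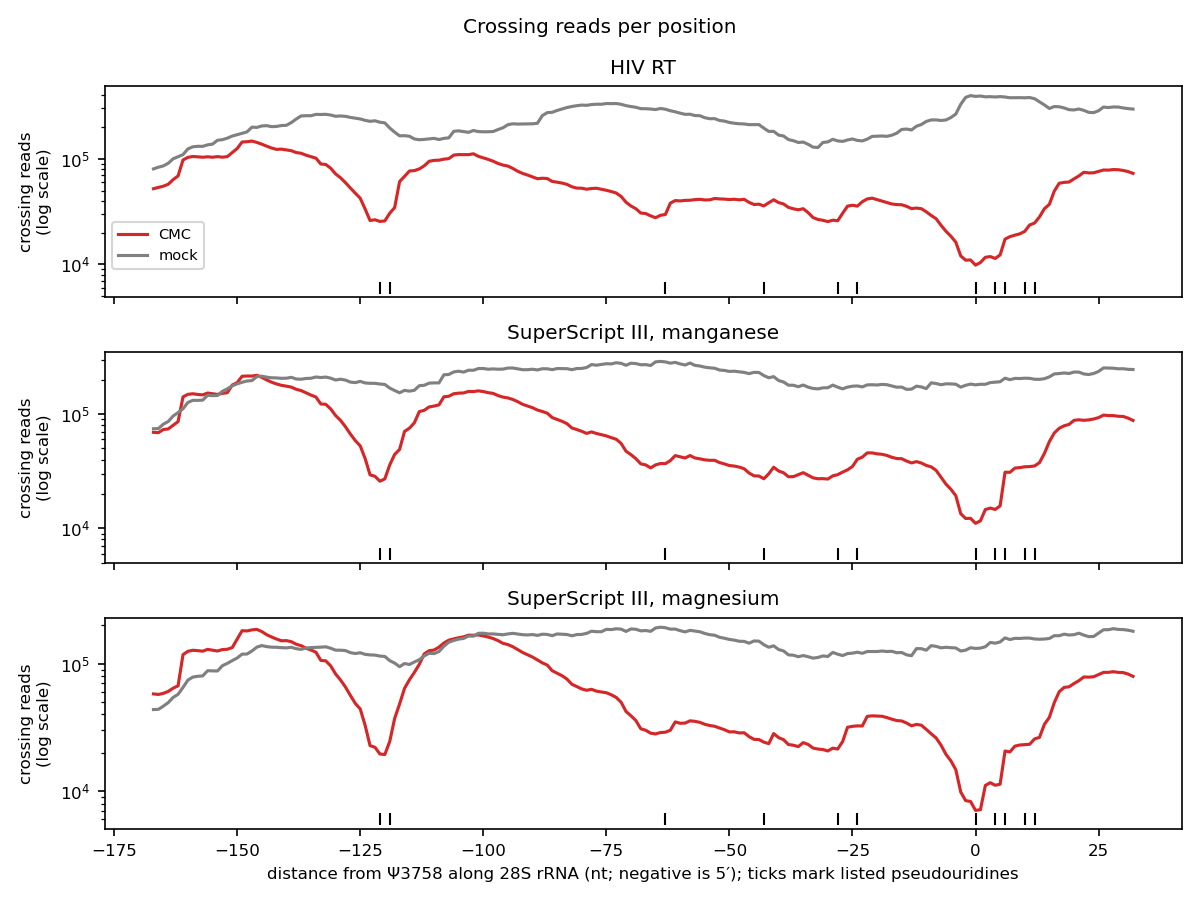
Crossing reads at each position on a log scale, by distance from Ψ3758 in nt, for the CMC (red) and mock (grey) libraries, a panel per condition. The CMC libraries reach their lowest count at 3758, the 5′ end of the helix 69 cluster, while the mock libraries are lowest at 3591.

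Across the 11 sites, the changes in mutation and in stops had different orders among the enzymes and cations. The change in mutation share was larger with HIV RT than with magnesium SuperScript III at 11 of 11 sites, with a median difference of 3.37 points and every counting interval above 0. With manganese it was also larger than with magnesium at 11 of 11 sites, by a median of 3.93 points, but the interval at Ψ3639 came close to 0 (0.322 points, 0.00150 to 0.642). HIV RT exceeded manganese at 6 sites and was below it at 5, between -8.11 points at Ψ3734 and 16.7 points at Ψ3715. For stops, magnesium SuperScript III had the larger change at most sites. HIV RT exceeded it only at Ψ3639, by 11.8 points, with a median over the sites of -5.12 points. Manganese exceeded it at Ψ3637, by 3.37 points, and Ψ3762, by 5.14 points, with a median of -6.05 points. HIV RT exceeded manganese at 5 of 11 sites, from -10.1 points at Ψ3762 to 32.0 points at Ψ3639. All of these comparisons rest on 1 library per group, and the deposited HIV RT tables carry other names than the SuperScript III ones. Whether they were processed alike is not stated, and its part in these differences was not tested.

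The base on the 3′ side, which the enzyme copies just before Ψ, differed among the sites, and so did their values. Ψ3758 and Ψ3762 are followed by A and had stop changes of 22.3, 25.4 and 37.0 points (Ψ3758) and 31.7, 41.7 and 36.6 points (Ψ3762). The 5 sites followed by C (Ψ3695, Ψ3715, Ψ3730, Ψ3768 and Ψ3770) had stop changes with medians of 9.42, 8.50 and 14.6 points. Large stop changes were not confined to sites before A, since Ψ3637, before G, changed by 21.4, 29.9 and 26.5 points and Ψ3639, before U, by 44.7, 12.7 and 33.0 points. Those followed by G (Ψ3637, Ψ3734 and Ψ3764) had a median mutation change of 11.8 points for HIV RT and 8.64 for manganese, where the sites followed by C had 3.61 and 2.59. For mutation the ranges overlap, since Ψ3715 lies before C and had the largest HIV RT mutation change. The groups hold 1 to 5 sites each and were not tested.

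Stop shares were also higher 1 base 5′ of many listed sites, that is, on the base the enzyme would copy next. With HIV RT the 5′ neighbour had the larger stop change at 6 of 11 sites, with manganese at 5 and with magnesium at 1. Among the 83 listed Ψ elsewhere this held at 26 (31.3%), 46 (55.4%) and 16 (19.3%). U3694, 5′ of Ψ3695, had a stop share of 26.2%, 10.9% and 9.17% in CMC, against 1.84%, 1.70% and 1.66% in mock. Its change with HIV RT, 24.3 points, was well above the 9.42 points of Ψ3695 itself. C3769, between Ψ3768 and Ψ3770, changed by 14.0, 5.08 and 1.58 points, and C3767 by 12.9, 0.413 and 0.435 points. G3714 changed by 10.7, 12.9 and 3.29 points, A3733 by 8.82, 6.21 and 1.42 and A3763 by 11.3, 3.60 and 1.39. U3729, 5′ of Ψ3730, changed by 15.0, 6.63 and 13.3 points. C3761 was called with HIV RT (6.66 points) and manganese (6.10), and C3636 with manganese alone (6.24). U3694, U3729 and G3638 were called in all conditions, and none of the other 5′ neighbours was called with magnesium. Taking the site and its 5′ neighbour together, the median combined stop share was 27.3%, 25.4% and 25.5% in CMC, against 3.05%, 4.85% and 4.91% in mock. The median combined changes, 25.8, 18.5 and 20.5 points, compare with 14.6, 11.2 and 19.0 points for the sites alone. A second row that also rises adds to the combined change by construction. Over the 83 listed Ψ elsewhere the median combined changes were 25.7, 16.7 and 26.0 points.

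C3771, 3′ of Ψ3770, was called for stops in every condition, with changes of 9.57, 18.4 and 10.9 points. C3731, 3′ of Ψ3730, just passed the bar with manganese (5.00 points). A 3′ neighbour exceeded its site at 1, 4 and 1 of the 11 sites, and at 4, 26 and 4 of the 83 listed Ψ elsewhere.

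Among mismatched reads at the listed Ψ, pooled over sites, C was the base most often read, in the CMC and the mock libraries alike. Pooled over the 11 sites, C made up 83.3%, 76.5% and 77.5% of mismatched reads in the CMC libraries, against 48.6%, 67.1% and 59.1% in the mock libraries. C was the leading base at 10, 8 and 9 of the 11 sites in CMC, against 9, 10 and 11 in mock. Ψ3715 was the purest with HIV RT, with 98.6% C among 7030 mismatched reads in CMC, against 65.4% in mock. With manganese and magnesium it had 85.6% and 71.2% C in CMC, against 70.9% and 62.2% in mock. The highest CMC shares of C there were at Ψ3695 with manganese (92.1%) and Ψ3639 with magnesium (90.1%). Ψ3764 read as C in 88.2%, 89.8% and 89.4% of CMC mismatches, against 35.7%, 56.1% and 58.9% of mock mismatches.

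Ψ3637, which stands before G, was an exception. With HIV RT its CMC mismatches were 45.8% G and 42.6% C, and with manganese 65.5% G and 25.2% C, against 28.2% G and 31.2% C, and 21.5% G and 34.2% C, in the mock libraries. Ψ3734 and Ψ3764 also stand before G and read as C. At Ψ3770 with manganese A led with 72.2% of 324 mismatched reads in CMC, against 20.9% of 139 in mock. Ψ3768 read as A in 49.6% and as C in 45.1% of CMC mismatches with manganese, against 9.04% A and 80.0% C in mock. With magnesium it read as A in 57.4% of only 101 reads in CMC, against 36.8% of 133 in mock. Ψ3762 kept C in the lead, yet 38.1% and 37.0% of its CMC mismatches with HIV RT and manganese were A, against 28.1% and 23.1% in mock.

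**Figure D5:**
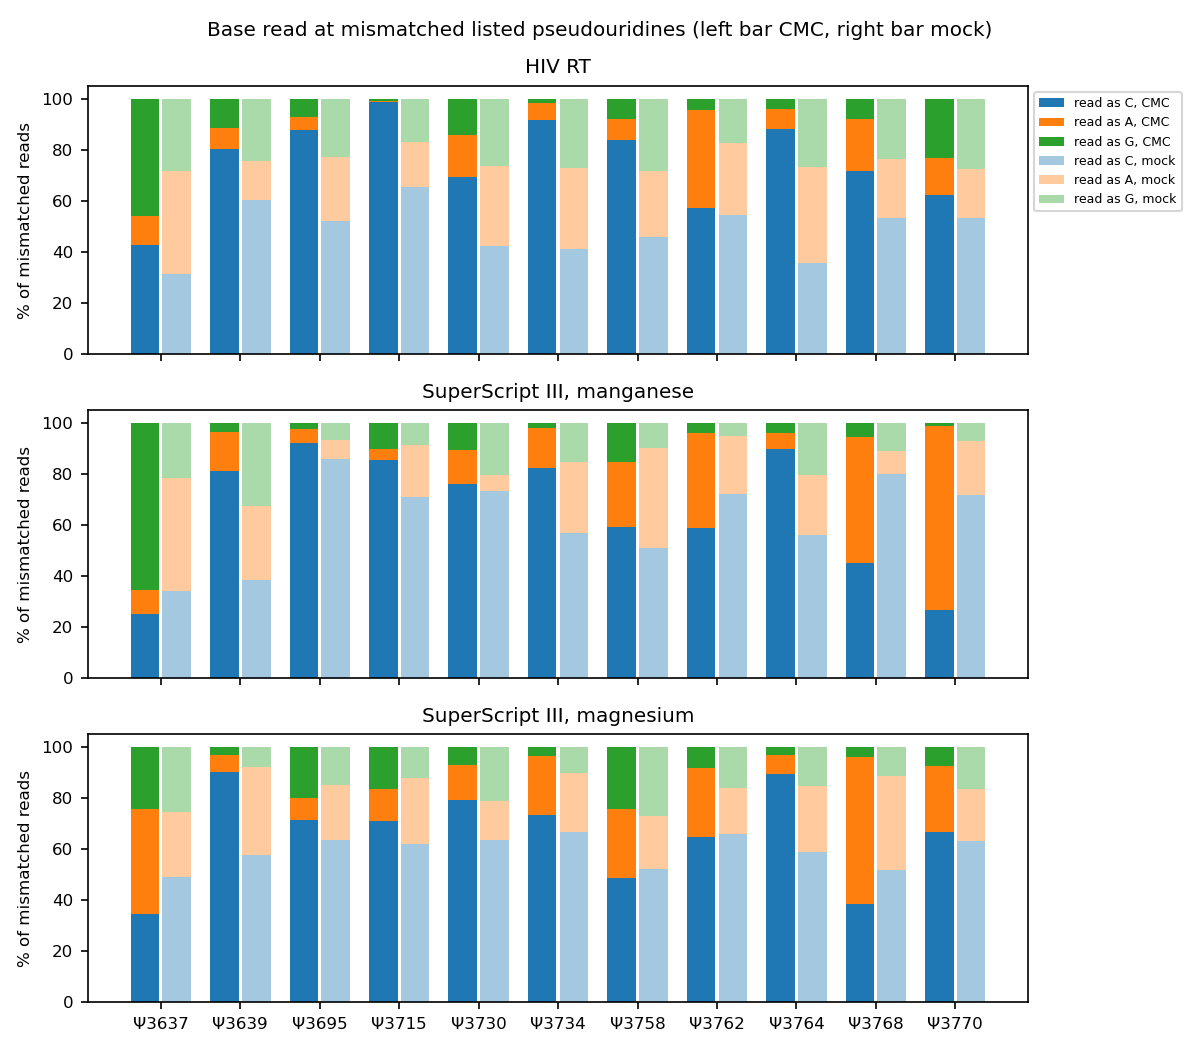
Composition of mismatched reads (percent A, C and G, stacked) at the 11 listed pseudouridines, with the CMC library as the left, darker bar and the mock library as the right, paler bar of each pair. C leads at 10, 8 and 9 of 11 sites in the CMC libraries with HIV RT, manganese and magnesium, and the exceptions are Ψ3637 in all conditions, Ψ3768 with SuperScript III and Ψ3770 with manganese.

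Set beside listed pseudouridines elsewhere in both rRNAs, the sites of the window had similar mutation and, with manganese, larger median stop changes. The median mutation change was 4.84, 4.49 and 0.352 points here, against 3.90, 3.62 and 0.478 points over the other 83. The median stop change was 14.6, 11.2 and 19.0 points here, against 14.1, 6.97 and 16.7 points elsewhere. In the second part of domain IV (8 sites) it was 11.3, 5.63 and 13.5 points, and in the first part of domain V (12 sites) 12.3, 5.18 and 11.8 points. These medians describe sites of shared molecules and libraries, and their differences were not tested.

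The 31 unlisted U of the window had small changes in mutation and were called for stops about as often as unlisted U elsewhere. Their median mutation change was 0.845, 0.761 and 0.148 points, and 0, 2 and 0 of them were called, where unlisted U elsewhere had 27 of 1029, 30 of 1028 and 3 of 1027. Stops were called higher at 11, 8 and 11 of 31, where unlisted U elsewhere had 349 of 1029, 239 of 1028 and 411 of 1027, and at 8 of them in all 3 conditions, against 7 of the 11 listed Ψ. U3595 was the highest of these. Stops there were 32.8%, 42.3% and 45.4% in CMC, against 6.44%, 9.07% and 13.6% in mock, while its mutation share changed by 0.449, 0.215 and 0.156 points. U3772 and U3773, just 3′ of helix 69's listed sites, changed by 20.7, 12.8 and 19.9 points and by 16.4, 8.26 and 20.7 points. Among the 158 A, C and G, stops were called higher at 8, 13 and 4 (5.06%, 8.23% and 2.53%). The 10.1%, 8.38% and 9.22% of all tested positions include U and Ψ. Unlisted U elsewhere were called at 33.9%, 23.2% and 40.0%, so the share of all positions is not a like measure for A, C and G. G3638 and C3771 were called in all conditions.

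Unlisted mutation calls came with manganese alone, at U3645, U3729 and G3776. U3645 was already read with another base in mock libraries. Its mutation share was 2.88%, 14.2% and 5.65% in CMC, against 1.17%, 7.34% and 1.39% in mock. U3729 had 3.95%, 6.61% and 0.653% in CMC, against 1.13%, 0.397% and 0.125% in mock. G3776 had 3.54%, 6.45% and 0.550% in CMC, against 1.50%, 1.22% and 0.0980% in mock. No unlisted position of the window was called for mutation in all conditions.

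The other modified bases examined in the window do not hold a pseudouridine, and none of them rose by 5 points. They were taken from general knowledge, and the list may not be complete. Methylcytidine 3782, placed by NSUN5 in human cells, had a mutation share of 0.547%, 1.76% and 0.204% in CMC, against 0.698%, 1.76% and 0.252% in mock. Its stop share was 3.23%, 5.17% and 3.98% in CMC, against 8.20%, 7.14% and 6.21% in mock, where unlisted C had medians of 2.22%, 1.77% and 1.59%. Ribose methylation at G3744, placed by fibrillarin with box C/D small nucleolar RNAs like the others, gave stop shares of 2.33%, 3.72% and 3.31% in CMC, against 8.50%, 6.92% and 12.7% in mock. The median of unlisted G in mock was 2.76%, 1.84% and 1.55%. Both bases thus stopped more reads in mock than the median of their kind and fewer with CMC. The ribose methylations at C3701, A3718, A3724, A3760 and A3785 changed by less than 2 points in either measure. Their mock stop shares lay on both sides of the median of their kind. A3724 was above it in each condition (3.58%, 2.85% and 4.57%, where unlisted A had 1.89%, 1.94% and 1.84%). A3718 (0.690%, 0.932% and 0.426%) and A3785 (1.60%, 0.243% and 0.0909%) were below it in each. C3701 and A3760 were above it with manganese alone.

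Stops were also lower with CMC at other bases, most of all with HIV RT. They were called lower at 18, 3 and 5 of the 200 positions, beside 254 of 6935, 137 of 6924 and 127 of 6912 tested positions (3.66%, 1.98% and 1.84%). With manganese and magnesium the window was thus near the share of all tested positions, and with HIV RT above it. The positions named here were chosen after their values were seen. With HIV RT, G3753 had a stop share of 2.43% in CMC, against 22.8% in mock, and G3754 had 2.44% in CMC, against 17.4% in mock. Neither was called lower with manganese or magnesium. There G3753 had 1.22% and 0.894% in CMC, against 0.364% and 0.176% in mock, and G3754 had 3.31% and 1.72%, against 4.94% and 2.82%. The 18 positions were 11 G (G3744 among them), 6 C and 1 A, and no U. With SuperScript III, A3747 fell to 3.40% in CMC with manganese, against 12.6% in mock, and to 1.96% in CMC with magnesium, against 9.93% in mock. The 11 listed Ψ held 13.4%, 10.6% and 12.8% of the window's stops in CMC, against 3.76%, 7.26% and 7.25% in mock.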

How the data were processed

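Total RNA above 200 nt was fragmented, treated, ligated, copied and sequenced in 1 lane, per the labels' protocols. The submitters' processing notes name Trimmomatic 0.32 and Bowtie 1.0 without settings. The authors deposited 12 tables, a count per position of crossing reads, of each base and of stops, plus the mismatch rate and stop frequency as a fraction between 0 and 1 (per the file headers). These fractions were recomputed from the deposited counts within 1.11e-16. Reads with no base were left out of the mismatches. File naming differs between the HIV RT and SuperScript III tables, and no source used here says whether their processing did too. Per library, stops summed over both rRNAs to between 21206954 and 47002169, and the median crossing count of the window lay between 49850.5 and 220177.

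Positions crossed by 100 or more reads in each library of a pair were compared by Fisher's exact test (scipy 1.17.1), with Benjamini-Hochberg adjustment (statsmodels 0.14.6) over all tested positions. The calls were tested on simulated data, for mutation with HIV RT and stops with magnesium. Without a rise, 0 of 6735 and 0 of 6712 positions were called. A rise of 4 points was called at 0 of 50 and 1 of 50, and rises of 6 and 10 points at 50 of 50 in both. These outcomes follow the size bar. The spread between libraries is unknown with 1 library per group, so the simulation could not show whether calls would repeat. The site list came from general knowledge and was used where the deposited base is U. Members and lists were chosen with earlier results of these data known. Named positions are all listed modifications, the 4 called unlisted positions with the largest rise per measure and condition, called neighbours of a listed Ψ, and unlisted positions called for mutation in every condition. Other positions were chosen after their values were seen. Alternatives changed the size bar, the read minimum, the stop row and the summary. Reads of near-identical rDNA copies are not separated, and no genome build applies to these positions.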

Additional observations from a re-analysis of the deposited data

How the results depend on the processing

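With a bar of 2 points, mutation calls were 8, 9 and 1 of the 11 pseudouridines and 17, 19 and 2 of the window with HIV RT, manganese and magnesium, and stop calls of the window with HIV RT were 50. With 10 points, mutation calls with HIV RT and manganese were 3 and 1 of the pseudouridines and 3 and 1 of the window, and stop calls of the window were 18 and 14. Stop calls of the pseudouridines with HIV RT, manganese and magnesium were 6, 6 and 9 with 10 points, and 11, 10 and 11 with 2 points. Counted beyond the median change of unlisted positions with the same base, manganese mutation calls were 2 of the pseudouridines and 4 of the window. Stop calls of the pseudouridines counted so were 7, 7 and 10 with HIV RT, manganese and magnesium. Stops taken 1 position 3′ of the sites were called at 5, 5 and 3. Pooling reads gave mutation changes of 7.93, 6.25 and 0.730 points and stop changes of 18.6, 13.4 and 19.7. As means, mutation changes were 6.94, 5.78 and 0.701 points and stop changes 16.5, 14.4 and 21.1. With the median change of unlisted U subtracted, the medians were 3.98, 3.78 and 0.226 and 11.6, 10.03 and 15.4 points. A minimum of 10000 reads kept all 12 counts of calls within 1.5 times. The size bar without the test left all 12 counts unchanged, so the bar and not the test set these calls. The medians were not run under these settings. Counting the site or its 5′ neighbour, an alternative chosen after seeing the data, gave 11, 10 and 11. No paired analysis was possible because the labels give no replicate numbers and 1 library per group. Depth does not limit calls at these positions, but the spread between libraries is unknown.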
